A study of Mus musculus with 12 samples.

Results

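The claudin, desmosome and gap junction genes comprised 66 of the 21965 genes in the count table of mouse gingiva. They were the rows whose GENCODE symbol begins with Cldn, Dsg, Dsc, Pkp, Gja, Gjb or Tjp followed by a number, together with Dsp, Jup, Ocln and Cdh1. The study asked how the loss of the phagocyte oxidase NADPH oxidase 2 (Nox2), whose catalytic subunit is encoded by Cybb, changes the gingival response to a ligature. Stranded mRNA libraries were made from gum tissue around the upper molars of 12 mice in 4 groups of 3, matched for age and sex per the labels: WT (C57BL/6 in the labels, C57BL/6J in the methods) naive, Cybb-/- (CybbKO) naive, WT ligated and CybbKO ligated. Ligated mice carried a silk thread around a maxillary molar for 8 days, and naive mice had none. The labels put the mice at under 12 weeks of age, and the methods at 6 to 10 weeks with both sexes used. The Cybb deletion is not limited to one cell type, and each library is whole tissue, in which fewer cells of a type and less RNA per cell cannot be told apart.

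Epithelial cells hold together through several junctions. Tight junctions seal the space between cells with claudins and occludin, which bind the zonula occludens scaffolds encoded by the Tjp genes. Adherens junctions and desmosomes carry mechanical load: E-cadherin (Cdh1) joins cells at the former, while in the latter desmogleins and desmocollins span the membrane and plakoglobin (Jup), plakophilins and desmoplakin (Dsp) tie them to keratin filaments. Gap junctions are channels of connexins that let small molecules pass from cell to cell, and the oral lining, blood vessels and glands use different connexins and claudins.

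Total counts per library ran from 27958819 to 42613423. Cybb stood at 5.6, 5.38 and 4.19 CPM in the WT naive libraries, 41.6, 56.3 and 45.9 in CybbKO naive, 8.41, 15.2 and 12.8 in WT ligated and 56.1, 51.1 and 63.7 in CybbKO ligated, so each library labelled CybbKO held more Cybb transcript than the highest WT library, and the groups are called here as they are labelled. Markers of 10 tissue and cell types were summed in every library, and those of oral epithelium dominated, at 76525 to 113380.0 CPM in naive and 58108 to 103720.0 in ligated libraries. WT naive replicate 3 stood apart: the salivary and mucous gland list summed to 29181 CPM there and to 57.5 to 5051 CPM in the other 11 libraries. Muc5b made up most of the sum, at 28943 CPM in that library and 55.6 CPM in WT naive replicate 1. Aqp5 and Bpifa2 were also highest in WT naive replicate 3, while Dcpp1, Bpifb1, Smr3a and Pip were highest in other libraries. Libraries also differed in how counts depended on base composition. The slope of log2 CPM on the GC share of a gene's longest transcript ran from −0.25 to 0.37 per 10 percentage points.

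Of the 66 genes, 44 passed the filter on low counts and were tested, and 22 did not. Among the 22, 12 had no read in any library, among them Gja10 and 10 claudins, of which 7 were Cldn34 genes. A further 4 had 1 to 9 reads in all. The filter kept 15 of 33 claudins, 10 of 13 alpha and beta connexins, 8 of 9 desmogleins and desmocollins, and all the plakophilins, Tjp genes, Dsp, Jup, Ocln and Cdh1. A mean of at least 1 CPM was reached by 39 genes and of at least 0.1 CPM by 45.

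On a per-length scale (CPM per kilobase of exon, averaged over the 12 libraries), the desmosome genes Pkp1 and Dsp stood highest. Pkp1, a plakophilin that links desmosomal cadherins to desmoplakin, had 808 CPM per kilobase and Dsp 599. Next came the desmocollin Dsc2 at 375, the connexin Gjb2 (connexin 26) at 364, the desmoglein Dsg1a at 336 and Gja1 (connexin 43) at 214. This order rested on the length used. The ratio of Gjb2 to Gja1 was 1.70 with all exons and 0.646 with the longest transcript. Per kilobase of coding sequence Gja1 was at 1914 CPM, Pkp1 at 1859, Gjb2 at 1293 and Dsp at 669, so that Gja1 stood above Pkp1 and Gjb2 above Dsp. Claudins were lower, with Cldn4 at 45.1, Cldn17 at 32.3 and Cldn1 at 19.5 CPM per kilobase of exon, while per kilobase of coding sequence Cldn1 was at 149 and Cldn4 at 130.1. The vascular genes Cldn5, Gja4 and Gja5 stood at 2.67, 1.6 and 0.485 CPM per kilobase of exon.

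**Figure D1:**
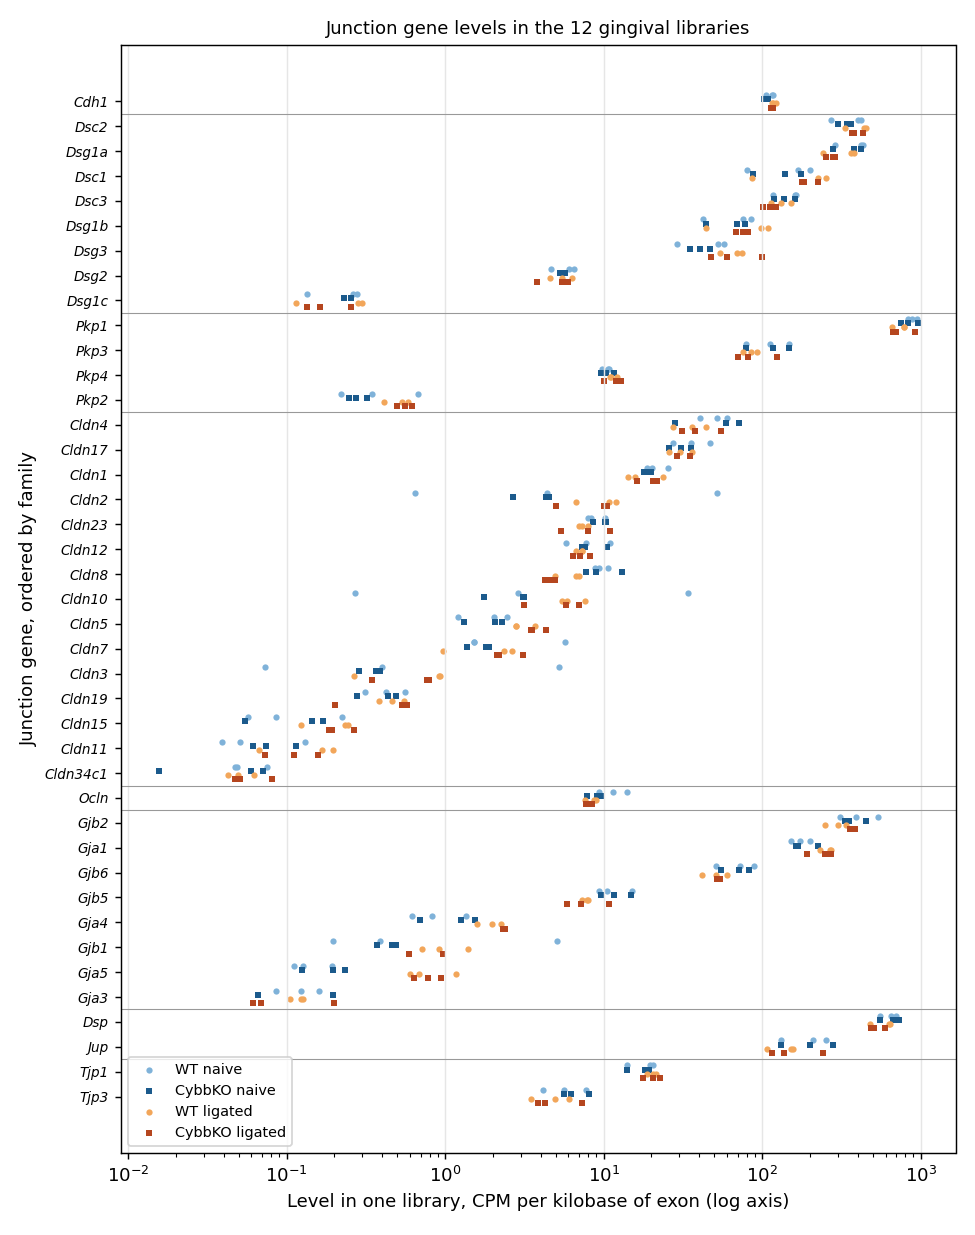
Level of each of 41 tested junction genes in each of the 12 libraries, in CPM per kilobase of exon on a log axis, with circles for WT, squares for CybbKO, pale and dark blue for naive and orange and red for ligated tissue. Pkp1 and Dsp lie furthest right, and a single WT naive circle lies far right of the rest for Cldn2, Cldn10, Cldn3 and Gjb1.

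The ligature effect was asked first within each genotype and then as the mean of the 2 within-genotype differences. In WT tissue 2 of the 44 genes were called by edgeR's quasi-likelihood test (adjusted p under 0.05 over all 15046 tested genes), against 3.2% of all tested genes. One of these was Gja5, which was higher. In CybbKO tissue 4 were called, against 13% of all tested genes, among them Gja5 and Cldn5 higher and Cldn8 lower. Over both genotypes 10 were called, 5 higher and 5 lower, which is 22.7% of the 44 beside 24.4% of all tested genes, so the share called was near that of the whole table. The median log2 fold change over both genotypes was -0.11 for the junction genes and −0.03 for all tested genes. The 10 genes were 7 of the 10 tested connexins, 2 of 15 claudins and 1 of 8 desmosomal cadherins, and 0 of the plakophilin, plaque, occludin, Tjp and E-cadherin genes. Without any one of WT ligated replicates 1, 2 or 3 or WT naive replicate 2, the WT count fell to 1 (Gja5), beside 0.178 to 1.63% of all genes tested in the same fits, and without WT naive replicate 3 it was 4, beside 4.85%. In WT DESeq2 called 6, beside 7.57% of all genes it fitted. With each library corrected by a smooth curve of its log2 CPM on GC share, edgeR called 7, beside 8.4%. This GC correction was chosen after the data were seen. The CybbKO count was 2 (Cldn8 and Gja5) without CybbKO ligated replicate 1 or 3 or CybbKO naive replicate 1 or 3, beside 5.52 to 7.75% of all genes. The count over both genotypes was 6 without CybbKO ligated replicate 1 or 3 or CybbKO naive replicate 1, beside 16.7 to 19.2% of all genes.

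**Figure D2:**
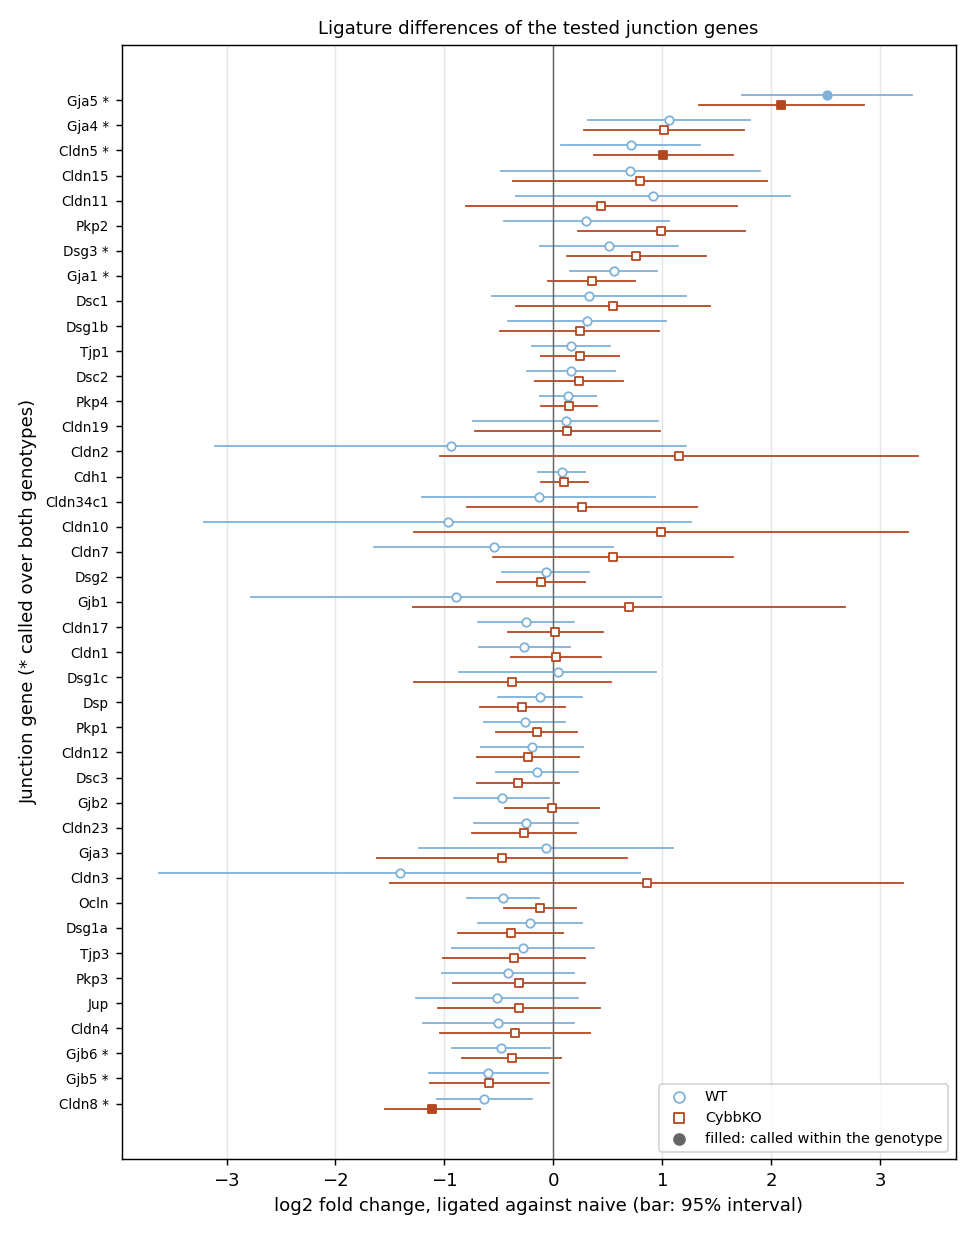
Log2 fold change, ligated against naive, of 41 tested junction genes in WT (blue circles) and CybbKO (red squares), with 95% intervals from the edgeR fit, filled where called within that genotype and starred where called over both. Genes are ordered by the difference over both genotypes, with Gja5, Gja4 and Cldn5 in the top rows and Cldn8 in the lowest, and the widest intervals belong to Cldn2, Cldn3, Cldn10 and Gjb1.

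The vascular connexins rose. Gja5 (ENSMUSG00000057123, chr3:96904693-97077416 on GRCm38) encodes connexin 40, a gap junction protein of arterial endothelium and heart conduction tissue. It stood at 0.64, 1.11 and 0.729 CPM in the WT naive libraries, 1.13, 0.721 and 1.34 in CybbKO naive, 3.46, 6.78 and 3.94 in WT ligated and 3.68, 5.43 and 4.5 in CybbKO ligated. All 6 ligated libraries lay above all 6 naive ones, and the difference was 4.93-fold, 95% interval 3.39 to 7.18 (edgeR adjusted p = 0.000247). Within genotypes the log2 fold change was 2.51 ± 0.36 (SE, n = 3 against 3, edgeR adjusted p = 0.00743) in WT and 2.09 ± 0.35 (edgeR adjusted p = 0.00372) in CybbKO. Gja4 (ENSMUSG00000050234, chr4:127311421-127314039), which encodes connexin 37 of vascular endothelium, stood at 1.04, 1.39 and 2.3 CPM in the WT naive libraries, 2.14, 1.17 and 2.59 in CybbKO naive, 2.66, 3.35 and 3.79 in WT ligated and 4.02, 3.99 and 3.9 in CybbKO ligated. Here too the ligated and naive libraries did not overlap, with 2.05-fold, 95% interval 1.43 to 2.94 (edgeR adjusted p = 0.00928). Within a single genotype it missed the threshold, at an edgeR adjusted p of 0.11 in WT and 0.0687 in CybbKO. It was called within both genotypes by DESeq2 (adjusted p = 0.0333 and 0.0236), with the GC correction (edgeR adjusted p = 0.0194 and 0.00879), and without WT naive replicate 3 (edgeR adjusted p = 0.0401 and 0.0357). Together Gja4 and Gja5 made up 0.102, 0.118 and 0.253% in WT naive, 0.189, 0.122 and 0.279% in CybbKO naive, 0.311, 0.51 and 0.491% in WT ligated and 0.432, 0.487 and 0.423% in CybbKO ligated of the connexin signal per kilobase of exon. Per kilobase of coding sequence these shares were 0.0459 to 0.124% in naive and 0.15 to 0.279% in ligated libraries.

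Cldn5 (ENSMUSG00000041378, chr16:18776847-18778262) encodes the main claudin of blood vessel endothelium. Its level was 1.71, 2.88 and 3.5 CPM in the WT naive libraries, 2.92, 1.86 and 3.23 in CybbKO naive, 3.98, 3.98 and 5.24 in WT ligated and 5.01, 6.15 and 4.95 in CybbKO ligated. The lowest ligated library was above the highest naive one, and over both genotypes Cldn5 rose 1.81-fold, 95% interval 1.33 to 2.48 (edgeR adjusted p = 0.0113). It was called in CybbKO (edgeR adjusted p = 0.0419) and not in WT (edgeR adjusted p = 0.204), but the call in CybbKO was lost without any one of the 6 CybbKO libraries, with adjusted p from 0.0632 to 0.128. With the GC correction it was called in both (edgeR adjusted p = 0.0237 in WT and 0.0035 in CybbKO). Gja5, Gja4 and Cldn5 gave p = 0.00216 in an exact two-sided permutation test of 6 against 6, the smallest that test can give. That value follows from the lack of overlap alone, which held for 11% of all tested genes. Other endothelial genes moved with them: all 8 of the endothelium list (Pecam1, Cdh5, Kdr, Emcn, Vwf, Tek, Tie1 and Esam) were called higher over both genotypes, beside 14.7% of all tested genes, with a median log2 fold change of 0.96, and their summed level was 133 to 175 CPM in naive and 244 to 383 in ligated libraries. Cdh5 is also on the adherens junction list. The part of endothelial content in these differences was not tested.

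Beta connexins of keratinocytes were among the genes that fell. Gjb5, the connexin 31.1 gene of epidermis, was at 16.1, 18.2 and 26.1 CPM in the WT naive libraries, 25.5, 16.6 and 19.9 in CybbKO naive, 13.8, 12.6 and 13.5 in WT ligated and 12.5, 18.7 and 10.1 in CybbKO ligated. CybbKO ligated replicate 2 lay inside the naive range, and Gjb5 fell, with a log2 fold change of -0.59 ± 0.18 (SE), adjusted p = 0.03 by edgeR. Gjb6 (connexin 30), expressed in the skin and the cochlea, was at 193, 239 and 137 CPM in the WT naive libraries, 219, 190.0 and 146 in CybbKO naive, 161, 136 and 111 in WT ligated and 141, 145 and 139 in CybbKO ligated. The ligated and naive ranges overlapped, and Gjb6 fell, with a log2 fold change of -0.43 ± 0.15 (SE), adjusted p = 0.0499 by edgeR, just inside the threshold. When single libraries were left out, the Gjb5 call was lost 8 times (adjusted p 0.0528 to 0.075), without WT naive replicate 3 or any WT ligated library or CybbKO replicates 1 and 3 of either state, and the Gjb6 call was lost 9 times (0.0579 to 0.124), being kept only without WT ligated replicate 1, WT naive replicate 3 or CybbKO naive replicate 3.

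**Figure D3:**
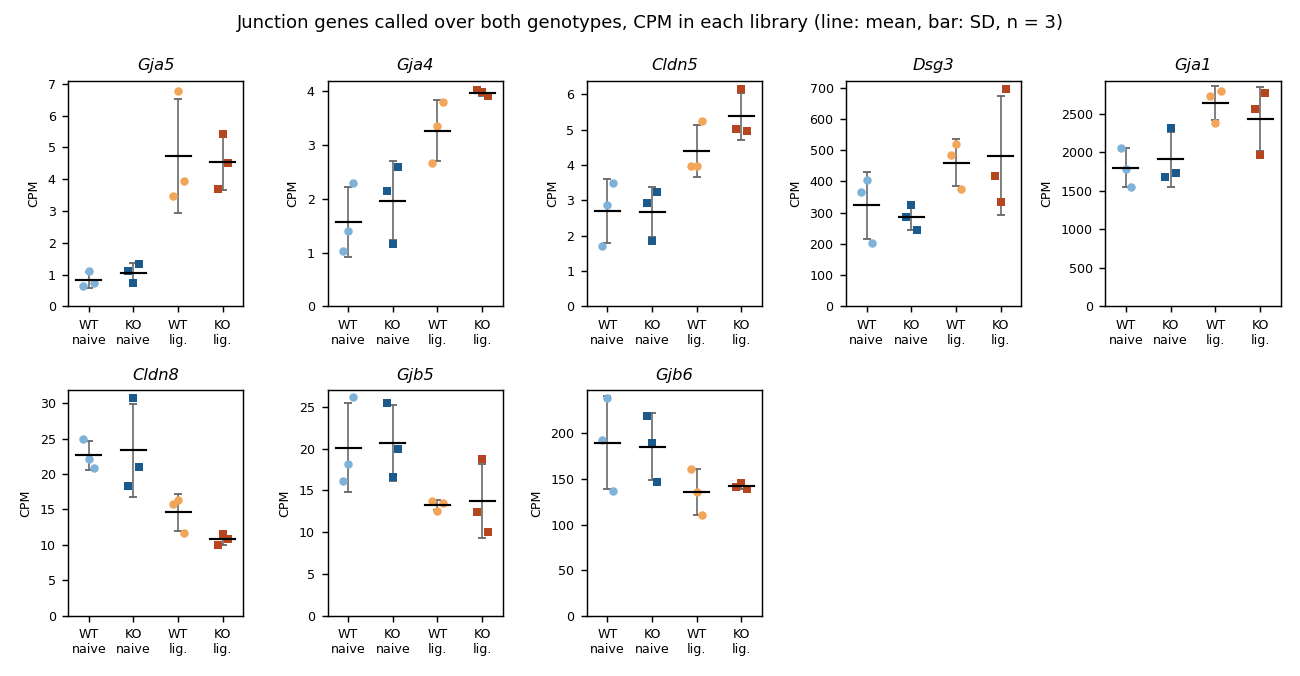
CPM in each library of 8 junction genes called over both genotypes, with the genes that rose in the upper row and those that fell in the lower row (KO, CybbKO and lig., ligated, with 3 libraries a group, line the mean and bar the SD). For Gja5, Gja4, Cldn5 and Cldn8 no ligated library lies within the naive range.

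Promoters are shown for every gene called over both genotypes that had an entry in the reference, so that those that rose and those that fell can be read side by side. Each is the 250 bases before the RefSeq start on GRCm38.p6, 5′ to 3′ on the gene's strand. Where a gene had more than 1 entry, the first was used. For Gja5 this start lies inside the gene span given above, so other starts of the gene are not shown. Of the 66 genes, 41 had an entry among the 32851 RefSeq promoters, 6 of them called genes. Capitals mark any match, on either strand, to 6 motifs. These were the GC box, written GGGCGG, the E-box bound by Snail and Zeb factors, which reads CACCTG, and the AP-1 motif, spelled TGANTCA. The other motifs were the TATA box, here TATAAA, the Grainyhead-like motif, given by AACCGGTT, and the ETS factor motif, searched as GGAAGT. The genes that rose are Gja5 (chr3:97032152-97032401, plus strand), Gja4 (chr4:127314040-127314289, minus strand), Cldn5 (chr16:18776597-18776846, plus strand) and Gja1 (chr10:56377050-56377299, plus strand).
Gja5: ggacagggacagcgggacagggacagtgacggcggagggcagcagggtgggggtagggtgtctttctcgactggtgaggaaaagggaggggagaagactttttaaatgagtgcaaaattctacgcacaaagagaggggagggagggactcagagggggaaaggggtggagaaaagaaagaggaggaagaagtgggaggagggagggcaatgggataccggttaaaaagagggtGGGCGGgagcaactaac
Gja4: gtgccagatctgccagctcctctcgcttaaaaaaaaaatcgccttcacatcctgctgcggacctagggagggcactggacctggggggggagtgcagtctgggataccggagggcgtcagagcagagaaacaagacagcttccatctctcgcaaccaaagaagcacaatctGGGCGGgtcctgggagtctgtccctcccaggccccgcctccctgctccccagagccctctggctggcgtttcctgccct
Cldn5: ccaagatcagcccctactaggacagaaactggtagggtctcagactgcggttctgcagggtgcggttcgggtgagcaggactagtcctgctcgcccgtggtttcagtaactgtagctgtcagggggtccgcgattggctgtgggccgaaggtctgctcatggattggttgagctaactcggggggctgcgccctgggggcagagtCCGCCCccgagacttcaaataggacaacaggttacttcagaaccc
Gja1: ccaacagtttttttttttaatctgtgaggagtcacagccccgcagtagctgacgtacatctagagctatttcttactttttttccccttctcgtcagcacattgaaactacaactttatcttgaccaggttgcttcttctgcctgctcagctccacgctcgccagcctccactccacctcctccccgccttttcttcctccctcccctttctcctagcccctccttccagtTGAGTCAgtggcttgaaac
The genes that fell are Gjb5 (chr4:127358165-127358414, minus strand) and Gjb6 (chr14:57133612-57133861, minus strand).
Gjb5: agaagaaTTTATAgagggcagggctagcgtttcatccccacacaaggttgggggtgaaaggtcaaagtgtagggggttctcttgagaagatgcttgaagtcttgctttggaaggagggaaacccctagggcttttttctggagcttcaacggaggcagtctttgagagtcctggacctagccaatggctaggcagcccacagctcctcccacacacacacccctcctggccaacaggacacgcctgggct
Gjb6: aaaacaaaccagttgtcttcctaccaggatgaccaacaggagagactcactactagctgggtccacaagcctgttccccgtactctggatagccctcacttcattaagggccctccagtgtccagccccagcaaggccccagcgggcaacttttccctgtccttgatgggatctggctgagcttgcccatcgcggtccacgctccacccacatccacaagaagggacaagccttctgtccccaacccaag
The windows of Gja5, Gja4 and Cldn5 each held 1 GC box, a motif present in 32.7% of all promoters of this length, and those of Gja1, Gjb5 and Gjb6 held none. Gja1 held 1 AP-1 match, starting 19 bases before the gene start, and 6.75% of all promoters hold one. Gjb5 held 1 TATA box match, starting 243 bases before the gene start, and 12.4% of all promoters hold one. None of the 6 windows held the E-box, Grainyhead-like or ETS motif, which were present in 17.2%, 0.116% and 19.7% of promoters. CG pairs numbered 7 in Gja5, 9 in Gja4, 12 in Cldn5, 6 in Gja1, 3 in Gjb5 and 5 in Gjb6, beside a median of 6 over all promoters. A match is a run of letters and no measured site.

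Gja1 and Gjb2 were the connexins of highest level per length. Gja1, the connexin of basal keratinocytes, fibroblasts and bone cells, stood at 2056, 1787 and 1552 CPM in the WT naive libraries, 1679, 2314 and 1728 in CybbKO naive, 2732, 2382 and 2796 in WT ligated and 2565, 1965 and 2769 in CybbKO ligated. Most ligated libraries were higher, CybbKO ligated replicate 2 lay inside the naive range, and Gja1 rose over both genotypes (log2 fold change of 0.45 ± 0.13 (SE), adjusted p = 0.0258 by edgeR). This call was lost without CybbKO ligated replicate 1 or 3, CybbKO naive replicate 1 or 3, WT ligated replicate 3 or WT naive replicate 2 (adjusted p 0.0568 to 0.0665). Gjb2, the connexin 26 gene of suprabasal and wounded epithelium, stood at 938, 1284 and 747 CPM in the WT naive libraries, 1079.9, 795 and 849 in CybbKO naive, 811, 722 and 602 in WT ligated and 863, 923 and 907 in CybbKO ligated. The ranges overlapped and no contrast called it (log2 fold change of -0.25 ± 0.14 (SE), adjusted p = 0.224 by edgeR over both genotypes). As a share of the connexin signal per kilobase of exon, Gja1 took 28.3, 20.1 and 25.7% in WT naive, 21.1, 33.6 and 26.5% in CybbKO naive, 38, 37.4 and 45.6% in WT ligated and 35.7, 28.2 and 36.9% in CybbKO ligated. This share depended on the length used, and with the longest transcript it was 39 to 56.1% in naive and 50.1 to 68% in ligated libraries.

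Claudins of the epithelium showed 1 call. Cldn8 (ENSMUSG00000050520, chr16:88560828-88563183), a barrier-forming claudin of kidney and other epithelia, was at 24.9, 22.1 and 20.9 CPM in the WT naive libraries, 18.4, 30.8 and 21 in CybbKO naive, 15.8, 16.4 and 11.6 in WT ligated and 10.1, 11.6 and 10.8 in CybbKO ligated. No ligated library reached the naive range, and Cldn8 fell to 0.546 of its naive level over both genotypes (95% interval 0.441 to 0.676, edgeR adjusted p = 0.00143). In CybbKO it was called with each of the 6 libraries left out in turn (log2 fold change of -1.11 ± 0.20 (SE), adjusted p = 0.00536 by edgeR), and in WT it was not called (log2 fold change of -0.63 ± 0.20 (SE), adjusted p = 0.103 by edgeR), although DESeq2 and the GC correction called it there (adjusted p = 0.0349 and 0.0396). Its neighbour Cldn17, which forms an anion-permeable channel and lies 53849 bases away on chromosome 16, was at 41.9, 54.8 and 32.2 CPM in the WT naive libraries, 41.4, 35.8 and 30.5 in CybbKO naive, 42.5, 35.7 and 30.2 in WT ligated and 34.1, 33.8 and 41.2 in CybbKO ligated. Its ligated and naive values overlapped, and it was not called (log2 fold change of -0.12 ± 0.14 (SE), adjusted p = 0.588 by edgeR).

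Cldn4, the highest claudin per kilobase of exon, stood at 73.7, 94.8 and 108 CPM in the WT naive libraries, 129, 50.8 and 107 in CybbKO naive, 49.9, 65.1 and 79.8 in WT ligated and 68.3, 99.6 and 57 in CybbKO ligated. Cldn1, which is needed for the skin barrier, stood at 97.4, 124 and 91.2 CPM in the WT naive libraries, 94.8, 96.5 and 86.5 in CybbKO naive, 68.5, 76.8 and 114 in WT ligated and 98.6, 78.2 and 105 in CybbKO ligated. Both overlapped between ligated and naive tissue, with a log2 fold change over both genotypes of -0.43 ± 0.22 (SE) for Cldn4 and -0.12 ± 0.13 for Cldn1 (edgeR adjusted p = 0.185 and 0.551). Cldn7, a claudin of simple and glandular epithelia, was at 2.95, 2.97 and 11.1 CPM in the WT naive libraries, 3.67, 2.66 and 3.54 in CybbKO naive, 1.89, 4.58 and 5.14 in WT ligated and 4.26, 6.02 and 4.15 in CybbKO ligated. Its highest value was WT naive replicate 3, the library with the highest gland marker sum, and it was not called in any contrast. Ocln, the occludin gene, was at 48.4, 59.2 and 39.4 CPM in the WT naive libraries, 41.3, 38.3 and 33.2 in CybbKO naive, 36.5, 38 and 32 in WT ligated and 32.5, 35.2 and 35.6 in CybbKO ligated. Its 2 highest values were WT naive, and it was not called over both genotypes (log2 fold change of -0.30 ± 0.11 (SE), adjusted p = 0.0645 by edgeR), although DESeq2 called it (adjusted p = 0.0358).

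Among the 8 tested desmosomal cadherins 1 was called over both genotypes. Dsg3, a desmoglein of basal keratinocytes and of oral lining, the target of pemphigus vulgaris antibodies, was at 365, 403 and 203 CPM in the WT naive libraries, 284, 326 and 245 in CybbKO naive, 484, 519.7 and 377 in WT ligated and 417, 333 and 696 in CybbKO ligated. The ranges overlapped and CybbKO ligated replicate 3 was highest. Over both genotypes Dsg3 rose, with a log2 fold change of 0.63 ± 0.21 (SE), adjusted p = 0.0426 by edgeR, and this call was lost when any library other than WT ligated replicate 3, WT naive replicate 2 or CybbKO ligated replicate 2 was left out (adjusted p 0.0513 to 0.107). As a share of desmoglein signal per length Dsg3 was 9.2, 10.2 and 7.92% in WT naive, 8.09, 8.61 and 9.58% in CybbKO naive, 12.7, 13.3 and 15.6% in WT ligated and 14.5, 11.4 and 22.6% in CybbKO ligated. The lowest ligated share, 11.4%, exceeded the highest naive one, 10.2%. Most of the desmoglein signal was Dsg1a and Dsg1b together, at 88.9 to 90.8% in naive and 76 to 87.6% in ligated libraries. Reads of the near-identical Dsg1a, Dsg1b and Dsg1c genes may have been divided between them in counting, so their single values are uncertain.

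Dsg1a, a desmoglein of upper layers, stood at 2468, 2394 and 1639.6 CPM in the WT naive libraries, 2158, 2387 and 1600.2 in CybbKO naive, 2069, 2159 and 1379 in WT ligated and 1588, 1648 and 1445 in CybbKO ligated. Dsc2, the main desmocollin by level per length, was at 2118, 2207 and 1437 CPM in the WT naive libraries, 1808, 1906 and 1586 in CybbKO naive, 2307, 2377 and 1761 in WT ligated and 2003, 1946 and 2296 in CybbKO ligated. Dsc1, a desmocollin of the outermost layers, was at 853, 1008 and 403 CPM in the WT naive libraries, 890.0, 706 and 441 in CybbKO naive, 1282, 1129.8 and 433 in WT ligated and 932, 901 and 1136 in CybbKO ligated. Each overlapped between ligated and naive tissue, and no contrast called any of them (edgeR adjusted p over both genotypes 0.178, 0.298 and 0.298). Dsc3, a desmocollin of basal layers, was at 869, 884 and 629 CPM in the WT naive libraries, 747, 874 and 645 in CybbKO naive, 713, 815 and 615 in WT ligated and 602, 546 and 661 in CybbKO ligated. It was not called (log2 fold change of -0.24 ± 0.12 (SE), adjusted p = 0.178 by edgeR), and its share of the desmocollin signal per length was 22, 20.9 and 24.9% in WT naive, 21, 24.4 and 23.5% in CybbKO naive, 16, 18.3 and 21.3% in WT ligated and 16.5, 15.6 and 15.6% in CybbKO ligated. The lowest naive share, 20.9%, lay below the highest ligated one, 21.3%, and WT ligated replicate 3 alone of the ligated libraries lay inside the naive range.

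**Figure D4:**
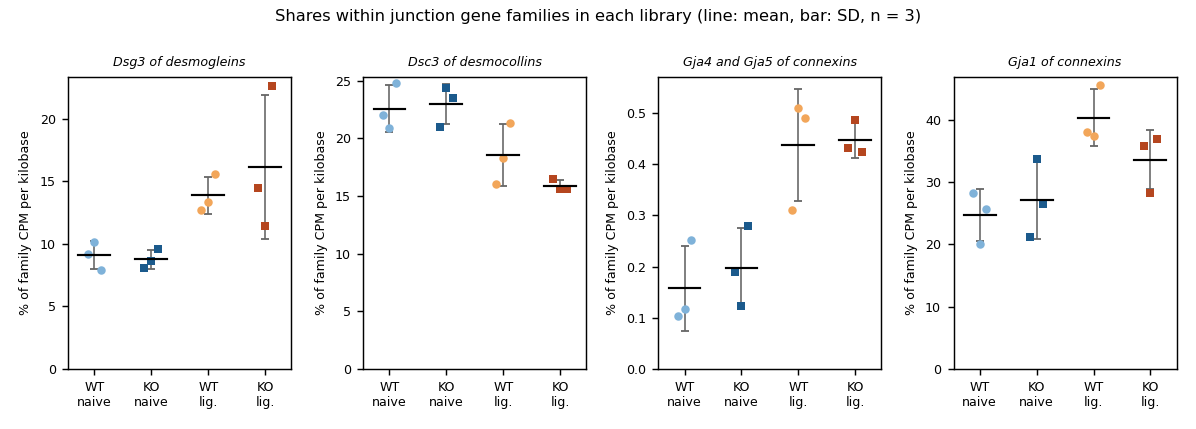
Share of a family's CPM per kilobase taken by the named genes in each library, in percent, for desmogleins, desmocollins and connexins (KO, CybbKO and lig., ligated, with 3 libraries a group, line the mean and bar the SD). Every ligated library has a higher Dsg3 share, 11.4 to 22.6%, than any naive one, 7.92 to 10.2%.

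Plaque, plakophilin and E-cadherin genes gave no edgeR call in any contrast with all libraries. DESeq2 called the plakophilin Pkp2 in CybbKO and over both genotypes (adjusted p = 0.0433 and 0.0474), where edgeR gave adjusted p = 0.0865 and 0.0767. Dsp, the desmosome's link to keratin, was at 6267, 6738 and 5376 CPM in the WT naive libraries, 7017, 6414 and 5327 in CybbKO naive, 6138, 6082 and 4655 in WT ligated and 4696, 5789 and 4901 in CybbKO ligated. Pkp1 was at 4454, 4779.7 and 4168 CPM in the WT naive libraries, 4799, 4168 and 3745 in CybbKO naive, 3952, 3926 and 3289 in WT ligated and 3336, 4619.8 and 3486 in CybbKO ligated. Both were lower on average in ligated tissue without passing the test (edgeR adjusted p = 0.262 and 0.233 over both genotypes). Cdh1, encoding E-cadherin, was at 485, 533 and 525 CPM in the WT naive libraries, 500.0, 495 and 471 in CybbKO naive, 528, 558 and 538 in WT ligated and 519, 517 and 535 in CybbKO ligated. It had the smallest standard error of the 44 genes, and its log2 fold change over both genotypes was 0.09, 95% interval -0.06 to 0.24 (edgeR adjusted p = 0.391). Jup, the plakoglobin gene, was at 851, 1353 and 1635 CPM in the WT naive libraries, 1797, 841 and 1289 in CybbKO naive, 1010.1, 979 and 692 in WT ligated and 879, 1548 and 738 in CybbKO ligated. Pkp3, a plakophilin of all epidermal layers, was at 288, 404 and 531 CPM in the WT naive libraries, 531, 285 and 425 in CybbKO naive, 334, 309 and 272 in WT ligated and 293, 451 and 253 in CybbKO ligated. In both, the highest naive values belonged to libraries in which GC-rich genes ran high. Their GC slopes were 0.37 in WT naive replicate 3 and 0.27 in CybbKO naive replicate 1. The highest ligated value was in CybbKO ligated replicate 2, with a slope of 0.26. The longest transcripts of Jup and Pkp3 held 58.8% and 60.3% GC. With the GC correction the log2 fold changes over both genotypes were -0.25 for Jup and -0.16 for Pkp3, beside -0.41 and -0.37 without it, and neither was called in either fit. The part of base composition in these values was not tested. Pkp4, a plakophilin relative of cell borders, was at 61.6, 60.9 and 55.9 CPM in the WT naive libraries, 59, 66.3 and 55 in CybbKO naive, 62.7, 69.4 and 63.8 in WT ligated and 68.5, 57.7 and 73.1 in CybbKO ligated, and was not called.

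Tjp1, encoding the scaffold ZO-1, was at 152, 160.0 and 110.0 CPM in the WT naive libraries, 143, 150.3 and 109 in CybbKO naive, 159.9, 167 and 146 in WT ligated and 159.6, 139 and 178 in CybbKO ligated. Tjp3, encoding ZO-3, was at 15.3, 20.9 and 28.9 CPM in the WT naive libraries, 29.9, 20.8 and 23.2 in CybbKO naive, 22.4, 18.3 and 12.9 in WT ligated and 15.9, 27.2 and 14.4 in CybbKO ligated. Both overlapped between ligated and naive tissue and neither was called, with 95% intervals of the log2 fold change over both genotypes of -0.05 to 0.46 for Tjp1 and -0.78 to 0.14 for Tjp3.

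Junction genes of glandular epithelium followed 1 library. Cldn2, a cation channel claudin, was at 2.13, 14.6 and 172 CPM in the WT naive libraries, 8.89, 15 and 14.3 in CybbKO naive, 39.8, 36.1 and 22.4 in WT ligated and 35, 16.7 and 33.2 in CybbKO ligated. Cldn10, a channel claudin of secretory and renal epithelia, was at 0.7, 7.43 and 88.7 CPM in the WT naive libraries, 4.56, 8.18 and 7.99 in CybbKO naive, 19.8, 14.2 and 15.2 in WT ligated and 18, 8.1 and 15 in CybbKO ligated. Cldn3 was at 0.0914, 0.506 and 6.56 CPM in the WT naive libraries, 0.462, 0.361 and 0.488 in CybbKO naive, 1.17, 1.15 and 0.337 in WT ligated and 0.992, 0.963 and 0.434 in CybbKO ligated. In each case WT naive replicate 3 was far above the other 11 libraries and WT naive replicate 1 was the lowest. The gland marker sum, mostly Muc5b, was highest and lowest in the same 2 libraries. Gjb1, encoding connexin 32 of secretory cells and Schwann cells, was at 0.335, 0.664 and 8.71 CPM in the WT naive libraries, 0.635, 0.832 and 0.793 in CybbKO naive, 2.39, 1.57 and 1.22 in WT ligated and 1.65, 1.02 and 1 in CybbKO ligated, with the same 2 libraries at the extremes. With all libraries the difference of CybbKO against WT in naive tissue was -2.31 for Cldn2, -2.22 for Cldn10, -2.43 for Cldn3 and -2.09 for Gjb1 on the log2 scale. Without WT naive replicate 3 each changed sign, to 0.61, 0.77, 0.55 and 0.59. Without that library Cldn2, Cldn10, Gjb1, Ocln and Pkp2 were called over both genotypes by edgeR, at log2 fold changes of 1.56, 1.50, 1.24, -0.36 and 0.91 (adjusted p 0.0181, 0.0321, 0.00905, 0.0157 and 0.00561). The part of gland tissue in these values was not tested.

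**Figure D5:**
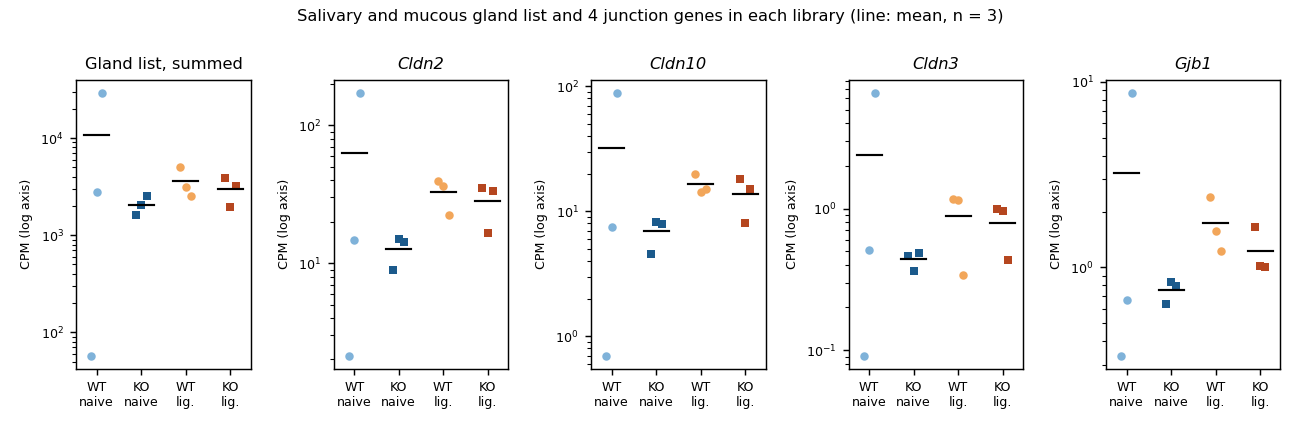
Summed CPM of the salivary and mucous gland list and CPM of Cldn2, Cldn10, Cldn3 and Gjb1 in each library on log axes (KO, CybbKO and lig., ligated, with 3 libraries a group and the line the mean). WT naive replicate 3 is highest and WT naive replicate 1 lowest in all 5 panels, with gland sums of 29181 and 57.5 CPM. Muc5b makes up most of each gland sum.

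The genotypes were compared in ligated and in naive tissue, and no junction gene was called in either. In ligated tissue 0 of 44 passed, beside 0.00665% of all tested genes, and 0 of 44 had an unadjusted edgeR p under 0.05, beside 3.34% of all tested genes, and 0 were called by DESeq2. Those of smallest p were Cldn8, Gjb2, Dsc3 and Dsg1a. For Cldn8 the log2 difference of CybbKO against WT was -0.43 (95% interval -0.87 to 0.00), and all 3 CybbKO values were below all 3 WT values, the closest pair by less than the rounding above, which an exact permutation test gives p = 0.1, the smallest possible with 3 against 3. Gjb2 differed by 0.34 (95% interval -0.10 to 0.77), with the CybbKO values all above the WT ones.

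In naive tissue 0 of 44 passed, beside 0.00665% of all tested genes, with 4 at an unadjusted p under 0.05 (Ocln, Gjb1, Cldn3 and Cldn2), beside 2.03% of all tested genes, and 0 called by DESeq2. Ocln differed by -0.38 (95% interval -0.71 to -0.05, edgeR adjusted p = 1), and the other 3 turned with WT naive replicate 3 as given above. The difference between genotypes in the ligature response was tested as an interaction, which called 0 of 44, beside 0% of all tested genes. For the interaction 0 of the 44 had an edgeR p under 0.05 before adjustment, beside 2.27% of all tested genes, and DESeq2 called 0. The smallest p belonged to Cldn8, at -0.48 on the log2 scale (95% interval -1.09 to 0.14), with Gjb2, Ocln and Cldn7 among the next. Intervals of this width do not show that the responses were equal.

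Across the set, ligated and naive libraries did not overlap at all, 6 against 6, for 5 of the 44 genes, among them Gja5, Gja4, Cldn5 and Cldn8, beside 11% of all tested genes. The GC correction kept all 10 calls over both genotypes, where it called 33.7% of all tested genes. It added Ocln (-0.34, edgeR adjusted p = 0.0386) and Dsc3 (-0.28, 0.032). With this correction the log2 fold change of Gjb5 was -0.57.

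Other genes of the same structures were read from fixed lists, over both genotypes by edgeR, and their counts stand beside the 24.4% of all tested genes called. Of 21 further tight junction genes, 2 (9.52%) were called, both higher: the junctional adhesion molecules Jam3 (0.69 ± 0.16 SE) and Jam2 (0.48 ± 0.16), with a median log2 fold change of −0.02 beside −0.03 over all genes. Afdn, F11r and Prkci were the most abundant of that list, and none of them was called. Of 14 adherens junction genes 4 (28.6%) were called, all higher: Cdh5 of endothelium (1.31), Cdh2 of mesenchyme and nerve (1.08), Cdh3 of basal epithelium (0.57) and Vcl, the actin link vinculin (0.44), while Ctnnb1, Ctnna1 and Nectin4, the most abundant, were not. Of 9 desmosome partners and plakins, 1 (11.1%) was called, Vim, the mesenchymal filament gene, at 0.50, and the median was −0.29. Of 5 tested gap junction relatives 3 (60%) were called higher: Gjc1, the vascular connexin 45 gene (1.18), Panx1 (0.35) and Panx3, a channel gene of bone and cartilage, whose naive libraries held 0 to 0.0305 CPM and whose ligated libraries 0.0996 to 0.571.

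Of 18 transcription factors that act on junction genes, 5 (27.8%) were called, a share near the 24.4% of all tested genes. Zeb1, Zeb2, Twist1 and Twist2, factors of mesenchymal cells that can repress E-cadherin, were higher, at log2 fold changes of 1.09, 1.09, 0.69 and 0.78. Klf4, a factor of keratinocyte differentiation, was lower (-0.40, edgeR adjusted p = 0.0281). Cdh1 itself was not called, as given above. Of 16 proteases and inhibitors that cut or protect junction proteins, 6 (37.5%) were called, beside the same 24.4%: the kallikreins Klk5 (-1.05), Klk6 (-0.94), Klk10 (-0.64) and Klk11 (-0.43) lower, and Klk13 (0.29) and the sheddase Adam17 (0.41) higher.

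Cell type markers moved at the same time, and over both genotypes 14.7% of all tested genes were called higher and 9.66% lower. Fibroblast markers were called higher for 5 of 6 and summed to 1390.3 to 2917 CPM in naive and 3867 to 10396 in ligated libraries, and neutrophil markers for 6 of 6, at 329 to 898 CPM in naive and 1314 to 11545 in ligated libraries. Within ligated tissue the neutrophil list summed to 1314 to 3660.4 CPM in the WT ligated libraries and 2452 to 11545 in CybbKO ligated. Most of each neutrophil sum, in naive and ligated libraries alike, was S100a8 and S100a9. Cxcr2 was at 9.28, 9.71 and 16.3 CPM in WT ligated and 29.6, 17.6 and 38.9 in CybbKO ligated. Ly6g reached at most 1.77 CPM in any library. Of the 8 oral epithelium genes 2 were called lower, Krt15 of basal cells (-1.55) and Krt76 of differentiated oral lining (-0.72), with a median of −0.23. Bone markers were called higher for 3 of 4 tested, and the gland list for 1 of 6, Pip. Pip was at 0 CPM in every naive library and at 0.0456 to 2.43 CPM in the ligated ones. Schwann cell, skeletal muscle, tooth and melanocyte markers gave 0 calls of 6, 6, 3 and 2 tested. The gland marker Prb1 and the tooth markers Amelx and Dspp were at 0 in every library. The part of these shifts in the junction gene differences was not tested.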

How the data were processed

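Raw counts per gene, whole numbers with no normalization, were deposited by the authors for 12 stranded polyA libraries. Their methods name STAR, GRCm38 (Ensembl) and featureCounts counting by strand, while the submitters' processing notes list FastQC 0.10.1 and HTSeq 0.10.0. Symbols came from GENCODE M21 for 21939 of 21965 genes, with 26 unmatched. The members, gene lists and naming rule were chosen with earlier results of these data known. Of the rule's list genes, the most abundant are named for only some lists, which was decided with the values in view.

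edgeR 4.0.16 in R 4.3.3 fitted all 12 libraries jointly (TMM, factors 0.918 to 1.08, filterByExpr, 1 mean per group), and p-values were adjusted by Benjamini-Hochberg over 15046 genes. CPM use TMM-scaled totals. At totals of 27958819 to 42613423 the spread between mice (biological coefficient of variation 0.240) outweighs counting error for most genes. Exact permutation tests used log2(CPM + 1). DESeq2 1.42.0, other scalings and filters, a replicate block and each library left out were alternatives. The scripts were tested on simulated counts. Some genes of the set entered the fits and the counts but are not reported by name here, and the figures leave them out.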

Additional observations from a re-analysis of the deposited data

How the results depend on the processing

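Gja5, Gja4, Cldn5 and Cldn8 were called over both genotypes in all 21 settings, Gja1 in 14, Dsg3 and Gjb5 in 11 and Gjb6 in 9. The number of junction genes called over both genotypes was 6 to 13 with 1 library left out, in CybbKO 2 to 5, and in WT 1 to 4, where 16.7 to 30.9%, 5.52 to 19.4% and 0.178 to 4.85% of all tested genes were called. In WT DESeq2 called 6 (beside 7.57% of all genes) and the GC correction 7 (beside 8.4%). With the replicate number as a block the counts were 7 over both genotypes, 2 in CybbKO and 1 in WT, beside 19.9, 10.5 and 1.8% of all tested genes, and 0 for the genotype contrasts and the interaction, but same-numbered libraries correlated at −0.21 to 0.27 in their deviations, so the numbers do not pair the mice. Under the other settings that kept all 12 libraries, these counts stayed within 1.5 times. With 1 library left out, the naive genotype differences ran from −2.80 to 0.77 for Cldn10, −2.87 to 0.61 for Cldn2, −3.0 to 0.55 for Cldn3 and −2.63 to 0.59 for Gjb1, reversing without WT naive replicate 3. The cause of these differences was not tested. Scaling by library size alone moved the median of all genes in WT from −0.03 to 0.08 and kept the directions of the 10 called genes, with 8 calls. Of the single-gene values, 0 changed direction under the other settings and 4 with a library left out, those just given. Depth limits the lowest genes, such as Gja5 in naive tissue at 0.64 to 1.34 CPM.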
